A study of Mus musculus with 24 samples.

Results

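The voltage-gated sodium, calcium and potassium channels were compared between the brains of Ts1Cje and 2N mice. They were taken as the probe sets whose only platform gene symbol begins with Scn and a digit, with Cacna, Cacnb or Cacng, or with Kcna, Kcnab, Kcnb, Kcnc, Kcnd, Kcnh or Kcnq and a digit, together with Kcnma1. Inward rectifiers (Kcnj) were not included. This gave 45 of 13674 genes with a probe set of their own, 36 on the Affymetrix array MGU74A (the plots call it A), 22 on MGU74B (B in the plots) and 13 on both. The genes had 69 of 24833 probe sets, 44 of them on MGU74A and 25 on MGU74B. No probe set with several symbols matched, and neither Kcnb nor any Kcnq gene other than Kcnq1 was among the members.

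Ts1Cje is a mouse model of Down syndrome. As background, the distal end of chromosome 16 is present in 1 more copy than usual in these mice, translocated onto chromosome 12, on which Sod1 is not functional. The 2N mice have the normal chromosome complement. Each genotype had 6 samples on each array, total RNA of brain, and the labels give no region, age, sex or further treatment. All 45 channel genes matched the mouse annotation, and 0 of them lie on chromosome 16, so none lies in the triplicated segment.

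Voltage-gated channels open when the membrane is depolarised. In neurons, sodium channels carry the upstroke of the action potential, potassium channels repolarise the membrane and set firing patterns, and calcium channels turn electrical activity into calcium entry that drives transmitter release and signalling to the nucleus. Each is a pore-forming alpha subunit joined by auxiliary subunits that set its traffic and gating. Several members are better known outside the brain, in skeletal muscle, heart or peripheral sensory neurons.

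Values are normalised intensities of a probe set. Brightness depends on the probes as well as on the RNA, so it is used here only to say how well a probe set was measured and not to rank genes. Values below a floor, 1.47 on MGU74A and 1.13 on MGU74B, were set to it. A probe set was tested with limma if its mean log2 intensity reached the 25th percentile of its array. Median deposited intensities ran from 11.2 to 21.7 on MGU74A and from 7.90 to 13.8 on MGU74B before normalisation, and Spearman correlations between samples lay between 0.914 and 0.956 on MGU74A and between 0.883 and 0.925 on MGU74B. On MGU74A replicates 3 to 6 of both genotypes correlated with each other (mean 0.945) more than with replicates 1 and 2 (0.932), and on MGU74B the means were 0.907 and 0.903. Replicates 1 and 2 correlated with each other at a mean of 0.926 on MGU74A and 0.909 on MGU74B. The labels do not tell whether separate animals were used, so p-values reflect sample-to-sample spread, part of which may be technical. Of the neuronal markers, each by its brightest probe set, 11 of 11 on MGU74A and 7 of 8 on MGU74B lay above the median of the array. The exception was Snap25 on MGU74B, near the floor at 1.56 ± 0.688 in Ts1Cje and 3.19 ± 2.35 in 2N (SD, n = 6 each). Tubb3, a neuronal tubulin gene, was at 2804 ± 172 in Ts1Cje and 2673 ± 164 in 2N on MGU74A (SD, n = 6 each), and Map2, which encodes a dendritic microtubule protein, at 559 ± 21.7 in Ts1Cje and 572 ± 46.3 in 2N on MGU74B (SD, n = 6 each).

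No channel probe set differed between the genotypes past the threshold. Of 44 probe sets on MGU74A 32 were tested, and of 25 on MGU74B 22 were tested. By limma with Benjamini-Hochberg adjustment over all probe sets of an array, 0 passed an adjusted p of 0.05 in either direction, where 0.0966% of all tested probe sets did so on MGU74A and 0.0645% on MGU74B, all of them higher in Ts1Cje. The adjusted p of the tested channels lay between 0.991 and 0.998 on MGU74A and between 0.997 and 0.999 on MGU74B. The absolute difference was over 1.5-fold for 4 of 32 on MGU74A, beside 6.63% of all tested probe sets, and for 2 of 22 on MGU74B, beside 7.97%, and those 6 all had a signal below the median of their array. At an unadjusted limma p under 0.05 there were 2 of 32 on MGU74A (6.25%), beside 3.65% of all tested probe sets, and 0 of 22 on MGU74B, beside 4.28%.

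The channel differences centred near 0. Their median log2 difference, Ts1Cje minus 2N, was -0.03 on MGU74A and -0.02 on MGU74B, and over all tested probe sets it was -0.0042 and -0.0034. The difference was above 0 for 14 of 32 on MGU74A (43.8%, beside 48.9% of all tested probe sets) and for 7 of 22 on MGU74B (31.8%, beside 49.3%). The median absolute difference was 0.14 on MGU74A, against 0.13 over all tested probe sets, and 0.05 on MGU74B, against 0.15. On MGU74B 15 of 25 channel probe sets had a signal above the median of all probe sets, and 7 lay in the top 10%. On MGU74A these counts were 16 and 0 of 44. The 6 Ts1Cje and 6 2N samples overlapped for every tested channel, while they did not overlap for 0.301% of all tested probe sets on MGU74A and 0.247% on MGU74B. In bulk tissue, fewer cells of a type and less RNA per cell cannot be told apart.

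**Figure D1:**
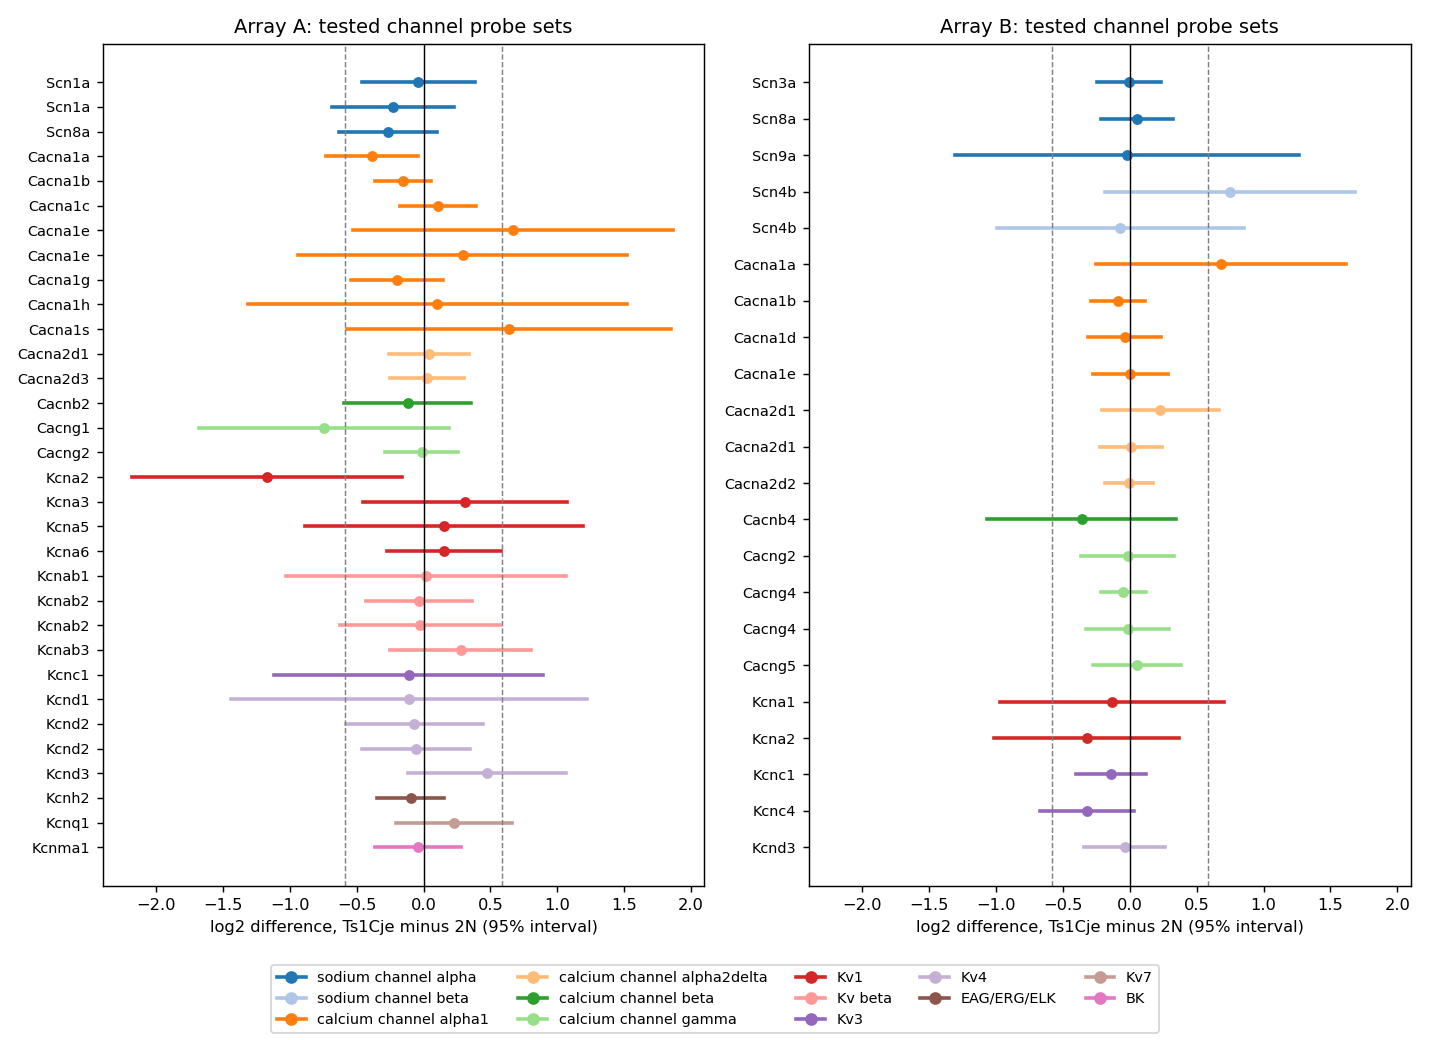
Log2 difference in intensity, Ts1Cje minus 2N, of the 32 tested channel probe sets on MGU74A (left) and 22 on MGU74B (right), as points with 95% intervals from limma, coloured by subunit group. Dashed lines mark 1.5-fold in either direction. Only Kcna2 and Cacna1a on MGU74A have intervals that leave out 0, and neither passed after adjustment.

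The data bounded many channel probe sets closely. The whole 95% interval lay within 1.5-fold of equality (0.58 on the log2 scale) for 13 of 32 tested probe sets on MGU74A and 13 of 22 on MGU74B. Of the 31 tested probe sets above the median signal of their array, 24 were bounded in this way, and they belong to 20 genes. Of the 23 at or below that median 2 were, those of Kcna6 and a further probe set of Kcnd2. Among the 20 genes, Scn1a, Scn8a, Cacna1e, Cacna2d1, Kcnab2, Kcnc1 and Kcnd3 had another tested probe set whose interval reached 1.5-fold. A bound is thus one of a probe set and not always of its gene. Standard errors of the log2 difference ran from 0.081 to 0.23 in the brighter class and from 0.20 to 0.67 in the dimmer one. The intervals of the other 28, 7 of them in the brighter class, reached 1.5-fold in at least 1 direction, so a change of that size was neither shown nor bounded there.

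**Figure D2:**
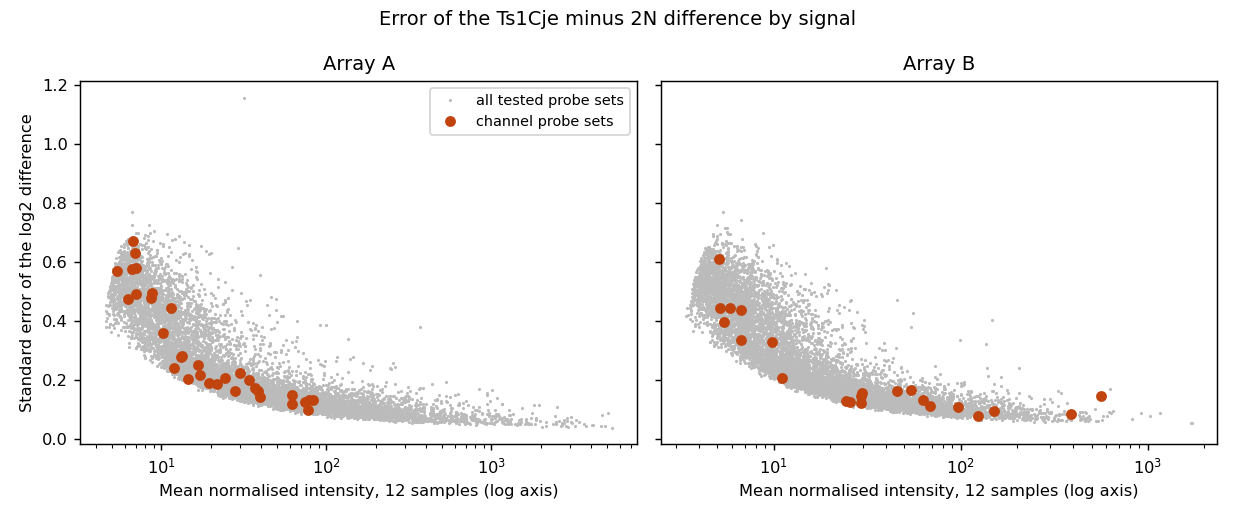
Standard error of the Ts1Cje minus 2N log2 difference against the mean normalised intensity over 12 samples (log axis) for all tested probe sets (grey) and the tested channels (orange), MGU74A left and MGU74B right. Channel errors fall with signal as those of other probe sets do, from 0.67 for the dim Cacna1h to 0.081 for a bright Cacng4 probe set.

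Among pore-forming sodium channel subunits, 6 of 12 probe sets were tested and 0 passed. Scn3a, a sodium channel prominent in the embryonic and newborn brain, was measured well on MGU74B, at 54.6 to 80.3 with a median of 68.8 in Ts1Cje, against 51.8 to 78.1 with a median of 70.6 in 2N. The samples of the genotypes covered nearly the same range, and the log2 difference was -0.0093 (SE 0.11, 95% interval -0.25 to 0.23). Its MGU74A probe set was at the floor in 11 of 12 samples, so the arrays cannot be compared for this gene.

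Scn8a encodes the main sodium channel of the axon initial segment and of nodes of Ranvier in mature neurons. Its probe set on MGU74A was at 24.7 to 42.8 with a median of 32.3 in Ts1Cje, against 33.3 to 52.5 with a median of 35.0 in 2N, a log2 difference of -0.27 (SE 0.18, 95% interval -0.63 to 0.10) that did not pass. All 4 of 2N replicates 3 to 6 lay between 33.3 and 35.2, within the Ts1Cje range, and replicates 1 and 2 of 2N were the highest at 52.5 and 52.3. On MGU74B the Scn8a probe set was at 25.9 ± 1.77 in Ts1Cje and 25.2 ± 3.54 in 2N (SD, n = 6 each), a log2 difference of 0.052 (SE 0.13) with the other sign, and a further one on MGU74A was at the floor in all 12 samples.

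Scn1a, a sodium channel of inhibitory interneurons, had 2 tested probe sets on MGU74A. The brighter was at 33.6 ± 9.02 in Ts1Cje and 34.3 ± 7.93 in 2N (SD, n = 6 each), with a log2 difference of -0.041 (SE 0.20), and the other differed by -0.23 (SE 0.22). Both lay within the spread between samples. Scn9a, a channel of peripheral sensory and sympathetic neurons, was tested only on MGU74B, where it was dim at 5.13 ± 3.51 in Ts1Cje and 5.08 ± 3.43 in 2N (SD, n = 6 each) and differed by -0.023 (SE 0.61).

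Scn4b, the one sodium channel beta subunit present, encodes an auxiliary subunit linked to fast, resurgent currents. It had a pair of dim probe sets on MGU74B that did not agree. The first was at 4.18 to 8.62 with a median of 6.33 in Ts1Cje, against 1.24 to 6.69 with a median of 4.50 in 2N, a log2 difference of 0.75 (SE 0.44, 95% interval -0.19 to 1.68), the highest among tested channels of that array. Without 2N replicate 6 it was 0.44. The second was at 7.17 ± 4.45 in Ts1Cje and 6.23 ± 1.55 in 2N (SD, n = 6 each) and differed by -0.070 (SE 0.44), so its mean intensity was higher in Ts1Cje and its mean log2 intensity lower. Neither passed, and the groups overlapped for both.

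The calcium channel alpha1 subunits form the pores that admit calcium. All 12 of their probe sets were tested, 8 on MGU74A and 4 on MGU74B, and 0 passed. Cacna1b, the N-type channel of presynaptic terminals, was measured well on both arrays. On MGU74B it was at 128 to 167 with a median of 148 in Ts1Cje, against 137 to 187 with a median of 147 in 2N, with a log2 difference of -0.086 (SE 0.096, 95% interval -0.29 to 0.12). On MGU74A it was at 73.7 ± 7.95 in Ts1Cje and 81.9 ± 6.43 in 2N (SD, n = 6 each), a log2 difference of -0.15 (SE 0.099, 95% interval -0.36 to 0.055). Both values lay slightly below 0, both intervals held 0, and neither reached a 1.5-fold change at its far end. Among replicates 3 to 6 the Cacna1b difference was -0.042 on MGU74A and -0.016 on MGU74B. Among replicates 1 and 2 it was -0.38 and -0.23.

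Cacna1a, the P/Q-type channel that triggers release at most central synapses, had one of the 2 unadjusted p-values under 0.05. On MGU74A it was at 16.8 to 30.2 with a median of 24.7 in Ts1Cje, against 26.1 to 36.2 with a median of 31.8 in 2N. In 4 of 6 Ts1Cje samples it was below every 2N sample, and the log2 difference was -0.39 (SE 0.16, 95% interval -0.73 to -0.043), with an unadjusted limma p of 0.029 and an adjusted p of 0.99. The dimmer Cacna1a probe set on MGU74B went the other way, at 6.86 ± 2.19 in Ts1Cje and 4.81 ± 2.70 in 2N (SD, n = 6 each), with a log2 difference of 0.68 (SE 0.45, 95% interval -0.25 to 1.62) that was 0.31 without 2N replicate 4. That 2N sample was at the floor on MGU74B. The Cacna1a probe sets differed in sign, and neither passed.

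Of the L-type channels, which couple depolarisation to gene expression, Cacna1c was at 62.2 to 98.6 with a median of 85.7 in Ts1Cje, against 56.8 to 92.1 with a median of 76.8 in 2N, with a log2 difference of 0.11 (SE 0.13). Cacna1d on MGU74B was at 23.9 ± 2.01 in Ts1Cje and 24.6 ± 3.15 in 2N (SD, n = 6 each) and differed by -0.038 (SE 0.13). Cacna1e, the R-type channel, had its bright probe set on MGU74B, at 62.8 ± 12.4 in Ts1Cje and 62.3 ± 9.96 in 2N (SD, n = 6 each) with a log2 difference of 0.0043 (SE 0.13). On MGU74A a pair of dim Cacna1e probe sets differed by 0.67 (SE 0.57) and 0.29 (SE 0.58). The first of these was the largest difference above 0 among tested channels of MGU74A, but it rested on values of 2.27 to 14.2 with a median of 5.18 in Ts1Cje, against 1.61 to 6.35 with a median of 3.93 in 2N.

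The T-type channels open near rest and support burst firing. Cacna1g was at 35.5 ± 3.25 in Ts1Cje and 41.7 ± 10.3 in 2N (SD, n = 6 each) on MGU74A and differed by -0.20 (SE 0.16), and the dim Cacna1h by 0.10 (SE 0.67). Cacna1s, the pore of skeletal muscle, was dim at 1.47 to 10.9 with a median of 9.20 in Ts1Cje, against 2.00 to 12.8 with a median of 3.71 in 2N. Its log2 difference of 0.64 (SE 0.58, 95% interval -0.58 to 1.85) was measured loosely, with an interval that held both 0 and changes over 1.5-fold, and the difference was 0.42 without 2N replicate 2 and 1.07 without Ts1Cje replicate 6.

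The alpha2delta subunits, which bring calcium channels to the surface and include the targets of gabapentin, lay close to 0. All 5 of their probe sets were tested, and their differences lay between -0.0051 and 0.23. Cacna2d2 on MGU74B was at 344 to 435 with a median of 387 in Ts1Cje, against 349.6 to 463 with a median of 377 in 2N. Its log2 difference of -0.0051 (SE 0.085, 95% interval -0.18 to 0.17) corresponds to between 0.880 and 1.13 times the 2N level. Replicates 1 and 2 of both genotypes were the highest samples for this probe set. Cacna2d3 on MGU74A was at 83.3 ± 13.2 in Ts1Cje and 82.1 ± 15.1 in 2N (SD, n = 6 each) and differed by 0.028 (SE 0.13). Cacna2d1 differed by 0.0061 (SE 0.11) with one probe set on MGU74B and by 0.040 (SE 0.14) on MGU74A, while the other MGU74B probe set, at 11.9 ± 1.12 in Ts1Cje and 10.3 ± 2.40 in 2N (SD, n = 6 each), differed by 0.23 (SE 0.21).

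The gamma subunits include skeletal muscle subunits and proteins that traffic AMPA-type glutamate receptors. Cacng2 (stargazin) and Cacng4 belong to the receptor-trafficking kind. Cacng4 on MGU74B was at 391 to 658 with a median of 582 in Ts1Cje, against 435 to 718 with a median of 545 in 2N, with a log2 difference of -0.016 (SE 0.15). Ts1Cje replicates 4, 5 and 6 share one value because the probe set held the same rank in each of them and quantile normalisation gives equal ranks equal values. The other Cacng4 probe set had the smallest error of all tested channels, at 122 ± 7.76 in Ts1Cje and 126 ± 12.1 in 2N (SD, n = 6 each) with a log2 difference of -0.048 (SE 0.081, 95% interval -0.22 to 0.12). Cacng2 differed by -0.015 (SE 0.13) on MGU74A and -0.017 (SE 0.16) on MGU74B, and Cacng5 by 0.056 (SE 0.16). Cacng1, a skeletal muscle subunit, was dim at 2.17 to 17.7 with a median of 10.7 in Ts1Cje, against 9.61 to 17.8 with a median of 12.2 in 2N, with a log2 difference of -0.74 (SE 0.44, 95% interval -1.68 to 0.19) that was -0.38 without Ts1Cje replicate 4. Ts1Cje replicates 1 and 4 were its lowest samples, at 3.62 and 2.17, replicate 2 also lay below every 2N sample, and the other 3 lay within the 2N range.

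The cytoplasmic beta subunits chaperone the calcium channel pore. Cacnb2 on MGU74A was at 28.9 ± 10.5 in Ts1Cje and 30.7 ± 7.77 in 2N (SD, n = 6 each) with a log2 difference of -0.12 (SE 0.23). Cacnb4 on MGU74B was dim at 5.92 ± 2.30 in Ts1Cje and 7.44 ± 2.55 in 2N (SD, n = 6 each) and differed by -0.36 (SE 0.34, 95% interval -1.07 to 0.34). The interval of Cacnb4 held changes of 1.5-fold or more in the downward direction, and that of Cacnb2 did so as well.

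**Figure D3:**
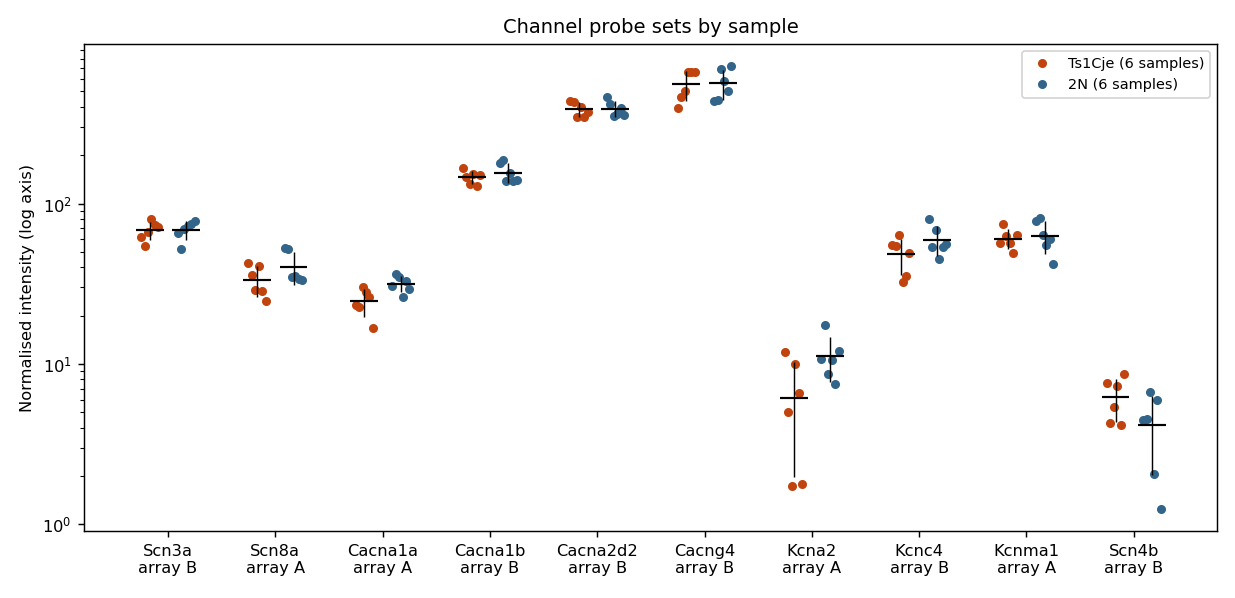
Normalised intensity (log axis) of 10 channel probe sets in each of 6 Ts1Cje (orange, left) and 6 2N (blue, right) samples, with black bars for the mean and SD. The genotypes overlap for each of them, and the spread widens for the dim Kcna2 and Scn4b.

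Among potassium channels, the shaker-related Kcna subunits form low-threshold channels of axons. Of 10 probe sets 6 were tested and 0 passed. Kcna2 on MGU74A had the smallest unadjusted p of all tested channels, 0.026 by limma, with an adjusted p of 0.99. It was at 1.73 to 11.9 with a median of 5.79 in Ts1Cje, against 7.53 to 17.6 with a median of 10.7 in 2N, a log2 difference of -1.17 (SE 0.48, 95% interval -2.18 to -0.16). In 4 of 6 Ts1Cje samples it was below every 2N sample, with replicates 3 and 6 close to the floor, where a log2 difference rests on small intensities. Kcna2 on MGU74B was at 8.96 ± 4.15 in Ts1Cje and 10.6 ± 2.99 in 2N (SD, n = 6 each) and differed by -0.32 (SE 0.33, 95% interval -1.02 to 0.37), with the same sign and an interval that held 0.

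Kcna6, better bounded, was at 15.3 ± 2.38 in Ts1Cje and 13.8 ± 2.35 in 2N (SD, n = 6 each) with a log2 difference of 0.15 (SE 0.20). The dim Kcna3, Kcna5 and Kcna1 probe sets differed by 0.31 (SE 0.36), 0.15 (SE 0.49) and -0.13 (SE 0.40). The beta subunits bind to the inside of these channels. Kcnab2 differed by -0.035 (SE 0.19) and -0.027 (SE 0.28) with a pair of probe sets on MGU74A, Kcnab1 by 0.020 (SE 0.50) and Kcnab3 by 0.28 (SE 0.25). None passed.

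Kcnc subunits repolarise fast-spiking neurons. Kcnc4 on MGU74B was at 32.2 to 63.8 with a median of 51.4 in Ts1Cje, against 45.4 to 80.2 with a median of 55.1 in 2N. Its log2 difference of -0.32 (SE 0.17, 95% interval -0.67 to 0.031) had an unadjusted limma p of 0.071, the smallest of the channels on that array, and an adjusted p of 0.997. Kcnc1 on MGU74B was at 27.9 ± 2.73 in Ts1Cje and 30.8 ± 4.02 in 2N (SD, n = 6 each) and differed by -0.14 (SE 0.12), and the dim MGU74A probe set by -0.11 (SE 0.48). The 3 Kcnc differences were all below 0, with intervals that held 0.

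Kcnd subunits carry the transient A-type current of dendrites. Kcnd2 was bounded by a pair of probe sets on MGU74A, at -0.058 (SE 0.19) and -0.068 (SE 0.24). Kcnd3 differed by 0.48 (SE 0.28, 95% interval -0.11 to 1.07) on MGU74A, where it was dim at 15.2 ± 4.30 in Ts1Cje and 11.2 ± 4.75 in 2N (SD, n = 6 each), and by -0.040 (SE 0.15, 95% interval -0.35 to 0.27) on MGU74B, where it was at 29.0 ± 5.29 in Ts1Cje and 29.6 ± 4.36 in 2N (SD, n = 6 each). The MGU74B value lay near 0. Kcnd1, dim on MGU74A, differed by -0.11 (SE 0.63).

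Kcnma1, the large-conductance channel opened by both voltage and calcium, was at 48.9 to 74.4 with a median of 59.9 in Ts1Cje, against 41.9 to 80.8 with a median of 61.9 in 2N. It differed by -0.041 (SE 0.15, 95% interval -0.36 to 0.28). Kcnh2, the ERG channel also known from cardiac repolarisation, was at 47.2 to 67.6 with a median of 60.4 in Ts1Cje, against 52.8 to 77.0 with a median of 64.6 in 2N, with a log2 difference of -0.097 (SE 0.12, 95% interval -0.35 to 0.16). Kcnq1, a channel of heart and inner ear, had 1 tested probe set, at 25.9 ± 3.21 in Ts1Cje and 22.9 ± 6.81 in 2N (SD, n = 6 each), which differed by 0.23 (SE 0.21). For Kcnq1 the lowest samples were 2N replicates 1 and 2 at 15.0 and 13.9, and among replicates 3 to 6 the difference was -0.17. The other Kcnq1 probe set on the same array was near the floor and was not tested. It was at 2.39 ± 1.57 in Ts1Cje and 3.87 ± 3.62 in 2N (SD, n = 6 each), with 3 samples at the floor.

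As a description, of 14 genes with over 1 tested probe set, 10 had differences of one sign in all of them and 4 did not, namely Cacna1a, Kcnd3, Scn4b and Scn8a. Probe sets on one array share its 12 samples, and the labels do not say whether same-numbered samples of both arrays hold the same RNA, so agreement in sign is no independent replication. Over the tested channels, the median deviation of a sample from the mean lay between -0.072 and 0.09 for Ts1Cje samples and between -0.07 and 0.20 for 2N samples on MGU74A, and between -0.03 and 0.09 for Ts1Cje and -0.07 and 0.16 for 2N on MGU74B. The highest samples were 2N replicate 1 on MGU74A and 2N replicate 3 on MGU74B.

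The arrays held 15 channel probe sets too dim to test, 14 of them with at least 1 sample at the floor. Of the tested channel probe sets, 3 also had a sample at the floor, those of Cacna1h, Cacna1s and Cacna1a on MGU74B. For 7 genes no probe set was tested, namely Scn7a, Scn10a, Kcna4, Kcna7, Kcnh1, Kcnh5 and Cacng6. Scn10a, the tetrodotoxin-resistant channel of pain-sensing neurons, was at 3.33 ± 2.89 in Ts1Cje and 2.99 ± 2.48 in 2N (SD, n = 6 each), with 7 of 12 samples at the floor. Kcna7 was at 4.03 ± 3.02 in Ts1Cje and 3.12 ± 1.60 in 2N and Cacng6, a muscle subunit, at 2.68 ± 2.76 in Ts1Cje and 2.85 ± 2.13 in 2N (SD, n = 6 each for both). Samples at the floor have no order among themselves. Kcna4, a channel with fast inactivation, was at 3.60 ± 1.67 in Ts1Cje and 3.69 ± 2.18 in 2N, and Kcnh5, a relative of Kcnh1, at 3.67 ± 2.56 in Ts1Cje and 2.73 ± 1.01 in 2N (SD, n = 6 each for both). Scn7a, an atypical sodium channel that senses sodium in the brain's fluid-sensing organs, was at 3.57 ± 2.34 in Ts1Cje and 2.52 ± 1.91 in 2N on MGU74B (SD, n = 6 each), and on MGU74A it was at the floor in 9 of 12 samples. Most of these levels lay within a few units of the floor. Kcnh1, the EAG channel, was at 1.47 to 7.17 with a median of 2.54 in Ts1Cje, against 2.56 to 9.78 with a median of 6.04 in 2N, just below the level needed for testing. The other untested probe sets, 1 each of Scn3a, Scn8a, Scn9a, Kcna1, Kcna5, Kcnab1 and Kcnq1, belong to genes that had another tested. Markers of skeletal muscle were also low. Of 10 on MGU74A 1 lay above the median of the array, Pvalb, which interneurons express too, and the summed intensity of all 10 ran from 179 to 218 in Ts1Cje and 131 to 232 in 2N. Their part in the values of Cacna1s and Cacng1 was not tested.

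Genes that work with these channels were counted from 3 lists, each gene by its brightest probe set on an array. Of proteins that anchor or modify channels, 13 were tested on MGU74A and 10 on MGU74B, and 0 passed in either direction, with median differences of 0.024 and 0.037. Ank3, which encodes the ankyrin that gathers sodium channels at the axon initial segment, differed by -0.056 (SE 0.094), and Ank2, a related ankyrin, by -0.037 (SE 0.065). The scaffold gene Dlg4 differed by 0.074 (SE 0.11) and Dpp6, a partner of A-type channels, by -0.071 (SE 0.11). The A-type channel partners Kcnip1 and Kcnip3 differed by -0.078 (SE 0.11) and 0.067 (SE 0.14). At an unadjusted limma p under 0.05 there was 1 gene on each array, beside 3.65% of all tested probe sets on MGU74A and 4.28% on MGU74B. These were Cntnap1 at -0.96 (SE 0.38) on MGU74A and Kcng4 at 1.27 (SE 0.51) on MGU74B. Both probe sets were dim and were picked after their values were seen. On MGU74B Cntnap1 differed by -0.14 (SE 0.39). Kcne1, a partner of Kcnq1 that lies on the triplicated segment, was also chosen after its value was seen. It was dim, at 7.27 ± 4.67 in Ts1Cje and 6.90 ± 6.62 in 2N (SD, n = 6 each), and differed by 0.26 (SE 0.55), an error too wide to tell equality from a 1.5-fold difference.

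Other channels of the resting potential and pacemaking had 12 tested genes on MGU74A and 4 on MGU74B, of which 0 passed, 0 also at an unadjusted limma p under 0.05, with medians of 0.0087 and -0.049. The chloride transporter gene Clcn3 differed by 0.084 (SE 0.076), the pacemaker channel genes Hcn2 and Hcn3 by -0.020 (SE 0.15) and 0.076 (SE 0.11). On MGU74B the potassium leak channel gene Kcnk3 differed by -0.041 (SE 0.17), Kcnt1 by 0.35 (SE 0.26) and Kcnn2 by -0.057 (SE 0.26). Ion pumps and calcium handling genes had 14 tested on MGU74A and 6 on MGU74B, of which 0 passed and 0 had an unadjusted p under 0.05, with medians of 0.033 and 0.11. The sodium pump subunit genes Atp1b3 and Atp1b2 differed by 0.044 (SE 0.084) on MGU74A and -0.030 (SE 0.072) on MGU74B. Calb2, an interneuron calcium buffer, differed by -0.088 (SE 0.07), Atp2a2 by 0.13 (SE 0.11), and the calcium pump genes Atp2b1 and Atp2b4 by 0.18 (SE 0.13) and -0.0045 (SE 0.094).

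The cell type marker lists also had no call. The summed intensity of 11 neuronal markers on MGU74A ran from 6154 to 6947 in Ts1Cje and 5738 to 6532 in 2N, and of 8 on MGU74B from 1515 to 1746 in Ts1Cje and 1628 to 1782 in 2N. Their median difference was 0.046 on MGU74A and -0.045 on MGU74B, with Tubb3 at 0.069, Stmn2 at 0.046, Map2 at -0.030 and Syt1 at -0.10. Most of the summed neuronal intensity on MGU74A came from Tubb3 and Stmn2. Stmn2 was at 1894 ± 129 in Ts1Cje and 1839 ± 181 in 2N (SD, n = 6 each). On MGU74A the median differences were 0.057 for 6 tested astrocyte markers, -0.059 for 4 of oligodendrocytes, -0.16 for 6 of microglia, 0.18 for 7 of endothelium and 0.015 for 7 of neural progenitors. They were 0.21 for 9 of skeletal muscle, -0.11 for 6 of heart muscle, 0.29 for 6 of pituitary and 0.36 for 3 of choroid plexus. On MGU74B the medians were -0.012 for 4 tested astrocyte markers, 0.041 for 2 of oligodendrocytes and -0.42 for 2 of endothelium, which on MGU74A had the other sign, as did those of astrocytes and oligodendrocytes. Each list had 0 genes past the threshold by limma in either direction. At an unadjusted limma p under 0.05 there was 1 pituitary marker on MGU74A, Cga at 0.91 (SE 0.42). On MGU74B there was 1 each of oligodendrocytes and endothelium, Sox10 at 0.46 (SE 0.13) and the dim Flt1 at -1.07 (SE 0.38). Each was named after its values were seen. The brightest MGU74A probe sets of Sox10 and Flt1 differed by -0.057 (SE 0.17) and -0.086 (SE 0.31). The part of other cell types in the channel values was not tested.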

How the data were processed

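Brain RNA of 12 samples per array design, 6 Ts1Cje and 6 2N, was measured on MGU74A and MGU74B. The deposited values were intensities on a linear scale, 1 per probe set and array; the summary method, software and scaling behind the authors' values were not given in the sources used here. Their 2% trimmed means differed by up to 2.10-fold (MGU74A) and 1.86-fold (MGU74B), beyond a limit of 5%, so each table was quantile normalised, floored at its 10th percentile and log2 transformed. Control probe sets (66 per array) were left out. The 9316 and 9308 probe sets at or above the 25th percentile of means were tested with limma 3.58.1 in R 4.3.3 (lmFit, eBayes with a mean-variance trend, Ts1Cje minus 2N, no other term), adjusted within each table. The tables were normalised and tested apart. The pipeline was tested on simulated data.

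Symbols came from the platform annotation, and all members matched the GRCm38.p6 gene table by gene identifier, with 0 symbols changed. Errors of intensities are SD over 6 samples; those of differences are limma standard errors. Folds are on the floored log2 scale, which shrinks changes of dim genes. The number of arrays limits precision. Named in the text are, per array, the brightest tested probe set of each subunit group, the 6 smallest p, the 3 largest differences in each direction and genes whose probe sets differ in sign with an unadjusted p under 0.05; other members were added so that each is accounted for. Of the lists, the 3 brightest genes per array are named, and of the markers the 2 brightest neuronal ones. The members and lists were chosen with earlier results of these data known. Alternatives changed the normalisation, floor, filter, variance model, weights, blocks, samples and threshold.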

Additional observations from a re-analysis of the deposited data

Results flagged for a closer look

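Of 64 groups of 6 samples (32 named probe sets in each genotype), 3 held a sample far from the other 5, where chance gives about 1 in 20. Each is given with its value only. Cacng2 on MGU74A was at 94.5 in Ts1Cje replicate 2, while the other Ts1Cje samples ran from 65.3 to 75.7. Cacna2d3 on MGU74A was at 108.2 in Ts1Cje replicate 1, and the other Ts1Cje samples ran from 72.8 to 85.2. Kcnd3 on MGU74A was at 20.4 in 2N replicate 5, and the other 2N samples ran from 7.08 to 11.6. Without that sample the Kcnd3 difference on MGU74A was 0.67, against 0.48 with it, and it did not pass (limma adjusted p = 0.98). For Cacng2 the difference without Ts1Cje replicate 2 was -0.091, and for Cacna2d3 without Ts1Cje replicate 1 it was -0.050.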

How the results depend on the processing

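Under 25 alternatives per array the number of channels past the threshold was 0 each time by limma, while 0 to 3 on MGU74A and 0 to 1 on MGU74B had an unadjusted p under 0.05. The smallest adjusted p of any channel was 0.90 on MGU74A and 0.86 on MGU74B, both with the replicate number as a block. Whether the replicate numbers pair the samples is not stated in the labels. In their deviations from the group means, same-numbered samples correlated by 0.016 to 0.079 on MGU74A and 0.012 to 0.11 on MGU74B. They correlated best with their own number in 4 and 2 of 6 cases, so pairing was neither shown nor excluded. With that replicate block the medians of the channels were -0.031 and -0.020, and no channel passed, with 2 on MGU74A and 1 on MGU74B (Kcnc4) at an unadjusted p under 0.05, against 2 and 0 without it. The median channel difference ran from -0.062 to 0.0028 (MGU74A) and -0.071 to -0.000882 (MGU74B) with a sample left out, just above 0 on MGU74A without 2N replicate 1 or Ts1Cje replicate 3, and from -0.063 to -0.0047 and -0.032 to 0.041 otherwise. Without normalisation between arrays the median of all probe sets itself moved to -0.055 on MGU74A and 0.055 on MGU74B. The count of all probe sets past the threshold was 9 on MGU74A and 6 on MGU74B. It was 0 on both without normalisation or with replicates 1 and 2 alone, 2 and 0 without the variance trend, 2 on MGU74B without a filter and 1 there with replicates 3 to 6 alone. With a sample left out it ran from 6 to 11 on MGU74A. On MGU74B that range was 1 to 6, with 1 left without 2N replicate 5, Ts1Cje replicate 1 or Ts1Cje replicate 2, and 3 without 2N replicate 4 or 6. Among differences of 0.2 or more that kept their sign with a sample left out, those moved over 1.5 times by it ran from 0.31 to 0.93 for Cacna1a on MGU74B, 0.42 to 1.07 for Cacna1s on MGU74A, 0.13 to 0.32 for Cacna2d1 on MGU74B, -0.51 to -0.20 for Cacnb4 on MGU74B, -0.99 to -0.38 for Cacng1 on MGU74A, -0.52 to -0.14 for Kcna2 on MGU74B, -0.41 to -0.21 for Kcnc4 on MGU74B, 0.095 to 0.31 for Kcnq1 on MGU74A, 0.44 to 0.93 for Scn4b on MGU74B. Of 32 named probe sets 16 kept the sign of their difference in all alternatives that tested them, 16 did not, and 0 passed in any. Sign changes were as follows, by gene and array. Those of Scn4b belong to its second probe set on MGU74B, while the range of 0.44 to 0.93 belongs to its first. Without normalisation between arrays, Cacna2d3 on MGU74A was -0.031, Scn3a on MGU74B 0.046, Kcnd3 on MGU74B 0.019, Cacna2d2 on MGU74B 0.051, Cacng4 on MGU74B 0.038, Scn4b on MGU74B 0.0032. With each array scaled to its 75th percentile, Kcnab2 on MGU74A was 0.0030. With array weights, Kcnab2 on MGU74A was 0.046, Cacng2 on MGU74A 0.0022. In replicates 3 to 6 alone, Kcnq1 on MGU74A was -0.17, Kcnma1 on MGU74A 0.081, Kcnc1 on MGU74B 0.038, Cacna2d2 on MGU74B 0.0012. In replicates 1 and 2 alone, Kcnc1 on MGU74A was 0.0070, Cacng2 on MGU74A 0.0021, Kcna6 on MGU74A -0.011, Cacna2d3 on MGU74A -0.018, Scn3a on MGU74B 0.000884, Kcnd3 on MGU74B 0.30, Scn4b on MGU74B 0.068, Cacna1a on MGU74B -0.49, Kcna2 on MGU74B 0.21. With the floor at the 25th percentile, Scn4b on MGU74B was 0.13. With 64 added in place of the floor, Scn4b on MGU74B was 0.017. With a sample left out, the differences that changed sign ran from -0.15 to 0.037 for Kcnma1 on MGU74A, -0.12 to 0.032 for Kcnd2 on MGU74A, -0.14 to 0.074 for Kcnab2 on MGU74A, -0.10 to 0.049 for Cacng2 on MGU74A, -0.050 to 0.087 for Cacna2d3 on MGU74A, -0.39 to 0.17 for Kcnc1 on MGU74A, -0.040 to 0.047 for Cacna2d2 on MGU74B, -0.086 to 0.081 for Cacng4 on MGU74B, -0.087 to 0.052 for Scn3a on MGU74B, -0.11 to 0.048 for Kcnd3 on MGU74B, -0.30 to 0.21 for Scn4b on MGU74B. Dim channels limit what can be seen. The cause was not tested.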
